A study of Homo sapiens with 12 samples.

Results

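The genes of cholesterol synthesis and transport were followed in K562 cells, a human line from chronic myelogenous leukaemia with erythroid features, given alpha-ketobutyrate (AKB), pyruvate or neither. The list was fixed by gene symbol, and its members were found by Ensembl identifier in the deposited count table of 17786 identifiers. Of 28 genes named, 27 had an identifier there, and ABCG1 was not analysed here. A filter on low counts left 26 of them among 13598 genes tested. ABCA1, the remaining one, had 0 to 9 counts per library. The members comprised 7 enzymes from acetyl-CoA to farnesyl diphosphate, 12 enzymes of squalene and sterol synthesis, 5 genes of sensing and intracellular transport, and 4 genes of efflux, storage and receptor turnover.

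The series held 12 poly(A)-selected mRNA libraries, 4 from untreated cells, 4 after 24 h with 2 mM AKB and 4 after 24 h with 2 mM pyruvate. All 3 groups were K562 cells grown in RPMI medium with fetal bovine serum. AKB has one more methylene group than pyruvate, both being 2-oxo acids, and the series' title calls them electron acceptors. Nothing in the labels tells whether replicate libraries were grown as separate cultures, and the spread that the p-values rest on may be technical.

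Cholesterol is built in the endoplasmic reticulum from acetyl-CoA by way of mevalonate, isoprenoid diphosphates, squalene and lanosterol. When sterol in that membrane is low, SCAP carries the membrane-bound transcription factor SREBP2, the product of SREBF2, to the Golgi, where proteases release its active part, and this factor then drives most genes of the pathway. When sterol is plentiful, INSIG proteins hold SCAP back, and oxysterols activate LXR, which raises genes of efflux such as ABCA1 and the ubiquitin ligase MYLIP, which marks lipoprotein receptors for breakdown. SOAT1 esterifies cholesterol for storage.

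SREBP2 binds sterol regulatory elements, often beside the CCAAT box bound by NF-Y. RefSeq promoter sequences (GRCh38.p14) of 250 bases before the start matched 24 of the 28 members, at 29 starts. They were searched on both strands for TCACNCCAC, a form of the sterol regulatory element, for CCAAT and for CACGTG, the E-box. The first was found at 1 of the 29 starts, that of SREBF2 itself, against 0.883% of 35116 promoters of the same length. CCAAT was found at 20 of the 29 starts, or 69.0% against 32.0% of all promoters, and CACGTG at 5 against 6.34%. Sequence is shown for SREBF2 because it alone held the sterol element, for HMGCS1, chosen after its values were seen, because it was the only member called between AKB and pyruvate in the fit to all 12 libraries, and for ABCA1 as an efflux gene. Each runs 5′ to 3′ towards the gene, stops before the most upstream start in the GENCODE 29 annotation, and has motif matches in capitals. HMGCS1 (chr5:43313513-43313662, minus strand) holds CCAAT read on the other strand, with a further match nearer the gene and outside the stretch shown. SREBF2 (chr22:41832855-41833078, plus strand) holds the sterol element with its preceding base, followed by CCAAT on the other strand. ABCA1 (chr9:104928238-104928405, minus strand) holds CACGTG and neither of the other motifs. These matches describe the letters in the window and were not tested as binding sites.
HMGCS1: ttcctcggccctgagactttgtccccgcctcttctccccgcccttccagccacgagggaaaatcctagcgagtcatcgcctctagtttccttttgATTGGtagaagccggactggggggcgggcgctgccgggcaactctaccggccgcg
SREBF2: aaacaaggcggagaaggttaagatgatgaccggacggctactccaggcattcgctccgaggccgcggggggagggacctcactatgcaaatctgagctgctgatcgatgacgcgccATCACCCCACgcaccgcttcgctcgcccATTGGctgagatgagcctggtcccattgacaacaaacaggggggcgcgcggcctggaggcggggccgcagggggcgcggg
ABCA1: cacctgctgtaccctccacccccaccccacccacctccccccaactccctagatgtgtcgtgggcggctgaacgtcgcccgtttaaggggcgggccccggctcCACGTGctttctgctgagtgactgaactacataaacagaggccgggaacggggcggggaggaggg

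Before any comparison, 2 libraries stood apart. Total counts ran from 15353200 to 21301073 per library, with the largest in pyruvate replicates 3 and 4. In these 2 libraries the log2 level of 10021 genes, relative to the mean of all libraries, was higher by 0.337 and 0.363 for each 10 percentage points of GC content, against slopes of −0.151 to 0.0049 in the other 10. The slopes were −0.151, −0.1, −0.119 and −0.000848 in untreated replicates 1 to 4. With AKB they were −0.11, 0.00325, 0.0049 and −0.0271, so GC content also differed in part between AKB and untreated libraries. Levels are given as CPM, counts scaled to library size with TMM factors that allow for differences in composition. Each comparison is therefore also given with pyruvate replicates 3 and 4 left out, and with an offset that removes each library's smooth curve of level on GC content. The erythroid markers that define K562 were high throughout: 7 markers summed to 10600 to 11800 CPM in untreated libraries, 11500 to 13000 with AKB and 8810 to 9900 with pyruvate. Most of that sum is the globin genes HBG1, HBG2 and HBE1, and the markers did not move together. HBE1 was called higher with AKB (0.42, adjusted p = 0.00146 by edgeR), HBG1 and HBG2 lower with pyruvate (−0.31 and −0.34, adjusted p = 0.0489 and 0.0206), and KLF1 was at 83.9, 78.8, 187 and 190 CPM in pyruvate replicates 1 to 4 against 70.9 to 89.0 untreated (0.79, adjusted p = 0.0926). Markers of 5 other cell types (T cell, B cell, monocyte, fibroblast, hepatocyte) summed to 2.01 to 2.39, 3.95 to 4.33 and 2.04 to 3.33 CPM in the same order, and the T-cell marker CD3E was at 0 to 0.122 CPM. The part of these differences in the results below was not tested. The libraries are bulk RNA, so fewer cells that express a gene and less RNA per cell cannot be told apart.

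In untreated cells the members' levels spanned a wide range. Levels between genes were compared as CPM per kilobase of the longest transcript. INSIG1, which retains SCAP in the endoplasmic reticulum, was highest at 256 CPM per kilobase, followed by HMGCS1 at 167, LBR at 163, FDPS at 105 and CYP51A1 at 101. DHCR7 at 89.1 and SQLE at 89.0 came next, closer to each other than the spread over libraries of either gene's level, which was 238 ± 10.4 CPM for DHCR7 and 264 ± 9.76 CPM for SQLE (SD, n = 4). The lowest enzymes were HSD17B7 at 8.15, TM7SF2 at 4.88 and PMVK at 3.88 CPM per kilobase. LBR and TM7SF2 encode sterol C14 reductases that catalyse the same step, and LBR, which is also a protein of the inner nuclear membrane, was at 163 against 4.88 for TM7SF2. Of the efflux and storage genes, MYLIP was at 24.0, SOAT1 at 10.1 and ABCA1 at 0.0145 CPM per kilobase.

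ABCA1, the transporter that loads cholesterol onto apolipoproteins, had 0, 1, 9 and 1 counts in untreated replicates 1 to 4, 0, 4, 5 and 2 with AKB, and 0, 2, 1 and 1 with pyruvate. A limit of 3 counts corresponds to 0.141 to 0.195 CPM in these libraries, for counting error only. The 3 groups overlapped, and no difference in ABCA1 was detectable at this depth.

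**Figure D1:**
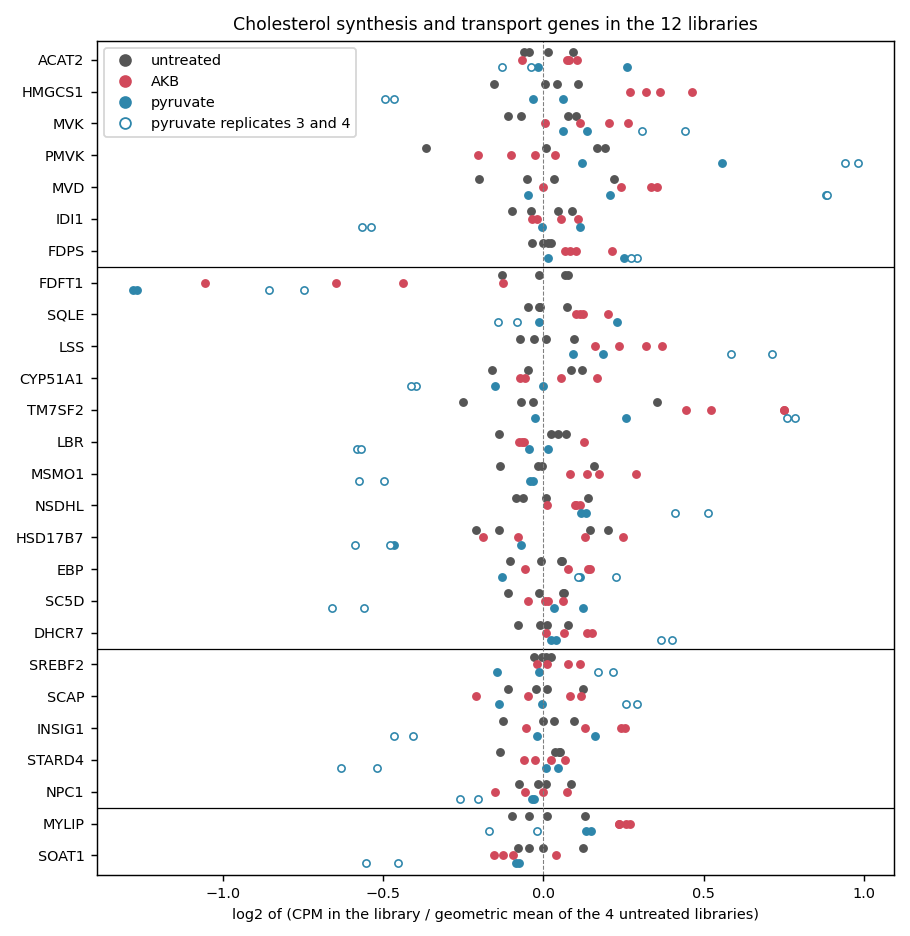
Level of each of the 26 tested genes in each library, as log2 of CPM over the geometric mean of the 4 untreated libraries, with horizontal lines between the role groups. With AKB, 4 points lie to the right of all untreated points for HMGCS1 and MYLIP, and pyruvate replicates 3 and 4 (hollow) lie apart from replicates 1 and 2 in most genes.

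With AKB, most synthesis enzymes had estimates slightly above untreated cells, and no member passed the test in the fit to all 12 libraries. Calls were made by edgeR's quasi-likelihood test where the p adjusted over the 13598 genes by Benjamini-Hochberg was below 0.05. Of 26 members, 0 were called higher and 0 lower, where 1.37% and 0.603% of all genes tested were. DESeq2 and limma-voom each called 0 members, against 3.96% and 1.9% of all genes. At an unadjusted p below 0.05, HMGCS1, LSS, TM7SF2 and MYLIP were higher (4 of 26, against 8.07% of all genes) and FDFT1 was lower (1 of 26, against 5.13%). Of the 19 enzymes, 16 had estimates above 0, with a median log2 fold change of 0.079, beside 51.4% above 0 and a median of 0.0061 over all genes. In 6 of the 26, HMGCS1, FDPS, SQLE, LSS, TM7SF2 and MYLIP, every AKB library lay above every untreated library, which 8.74% of all genes showed, and no member showed the reverse, which 8.41% did. In the fit to all 12 libraries the 3 groups shared 1 estimate of the spread, so the pyruvate libraries entered the SE of AKB against untreated. The fit without pyruvate replicates 3 and 4 holds the same AKB and untreated libraries, so its calls for AKB are not separate evidence.

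HMGCS1 encodes the cytosolic HMG-CoA synthase, which commits acetoacetyl-CoA to the mevalonate pathway. It was at 602, 587, 630 and 525 CPM in untreated replicates 1 to 4, at 806, 705, 730 and 753 CPM with AKB, and at 571, 610, 423 and 415 CPM with pyruvate. All AKB libraries were above all others, while pyruvate replicates 1 and 2 lay among the untreated libraries and replicates 3 and 4 below them. Its log2 fold change with AKB was 0.35 ± 0.12 (SE), with an adjusted p of 0.192 by edgeR. With the GC-content offset it was called higher (0.40 ± 0.049, adjusted p = 0.000514 by edgeR), and also without pyruvate replicates 3 and 4 (0.35 ± 0.059, adjusted p = 0.00487).

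TM7SF2, the less expressed of the C14 reductases, had 8.49, 9.61, 9.87 and 12.9 CPM in untreated libraries, 13.8, 17.0, 14.5 and 17.0 CPM with AKB, and 12.1, 9.92, 17.1 and 17.4 CPM with pyruvate. AKB libraries lay above untreated ones, and the pyruvate libraries spanned both groups. Its log2 fold change with AKB was 0.61 ± 0.19, with an adjusted p of 0.148. LSS, which folds oxidosqualene into lanosterol, was at 140, 136, 144 and 153 CPM in untreated libraries, 169, 179, 160 and 185 with AKB, and 153, 163, 215 and 235 with pyruvate. AKB libraries were again all above untreated ones, and the highest values were those of pyruvate replicates 3 and 4. The LSS estimate with AKB was 0.27 ± 0.12 on the log2 scale (adjusted p = 0.361).

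FDPS, which makes farnesyl diphosphate, was at 215, 214, 211 and 206 CPM in untreated libraries and at 227, 224, 222 and 246 CPM with AKB. SQLE, a monooxygenase of squalene and sterol synthesis, was at 262, 261, 278 and 255 CPM in untreated libraries and at 285, 287, 283 and 303 CPM with AKB. Both pairs of groups were separate but close, with log2 fold changes of 0.12 ± 0.066 and 0.14 ± 0.075 and adjusted p-values of 0.494 and 0.483.

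FDFT1 encodes squalene synthase, which joins farnesyl diphosphate into the first committed sterol precursor. It went the other way: 46.6, 43.7, 46.3 and 40.4 CPM in untreated libraries, 40.4, 32.6, 28.2 and 21.2 CPM with AKB, and 18.2, 18.3, 26.3 and 24.4 CPM with pyruvate. The AKB libraries ranged from the untreated level to the pyruvate level, with the widest spread of any group of this gene. The log2 fold change with AKB was −0.53 ± 0.17 (adjusted p = 0.186), and without pyruvate replicates 3 and 4 it was called lower (−0.53 ± 0.15, adjusted p = 0.0493 by edgeR).

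**Figure D2:**
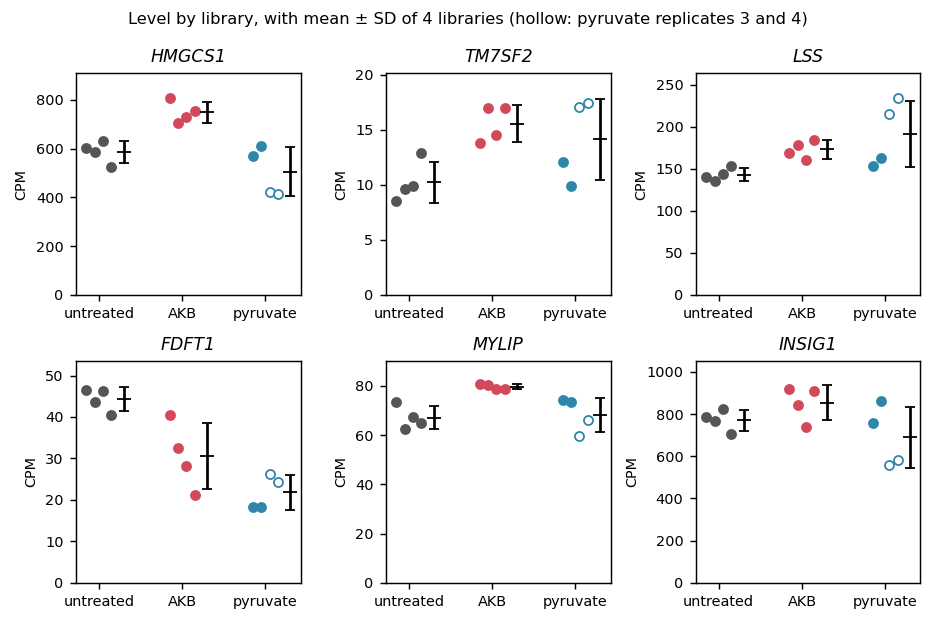
CPM of 6 members in each library, with untreated cells in grey, AKB in red and pyruvate in blue, and with the mean ± SD of 4 libraries beside each group. HMGCS1 with AKB sits between 705 and 806 CPM, above all untreated libraries, and FDFT1 with pyruvate sits between 18.2 and 26.3 CPM, below them.

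With the GC-content offset, 5 members were called higher with AKB and 0 lower, against 4.53% and 3.59% of all genes: HMGCS1, LSS, TM7SF2, MYLIP and MSMO1, a C4 methyl sterol oxidase. MSMO1 rose by 0.22 on the log2 scale (adjusted p = 0.0155 by edgeR). Estimates for LSS (0.20), TM7SF2 (0.51) and FDPS (0.07, not called) were smaller than over all libraries (0.27, 0.61 and 0.12). Those of HMGCS1 (0.40), MSMO1 (0.22), MYLIP (0.26) and SQLE (0.15) were larger than over all libraries (0.35, 0.17, 0.25 and 0.14). Without pyruvate replicates 3 and 4, HMGCS1, LSS, TM7SF2 and MYLIP were called higher and FDFT1 lower, against 4.86% and 4.31% of the 13941 genes tested there. MVD, which makes isopentenyl diphosphate, and SQLE had unadjusted p-values below 0.05 in both of these fits and were called in neither.

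The 5 sensing and transport genes stayed near their untreated levels with AKB. SREBF2 was at 214 to 221 CPM in untreated libraries and 215 to 236 CPM with AKB, with a log2 fold change of 0.05 and a 95% interval of −0.12 to 0.21. SCAP (−0.01, interval −0.24 to 0.22), STARD4, a sterol carrier between membranes (0.00, −0.29 to 0.29), and NPC1, which exports cholesterol from lysosomes (−0.03, −0.19 to 0.13), had estimates close to 0. INSIG1 was at 787, 769, 822 and 705 CPM in untreated libraries and 919, 842, 740 and 910 CPM with AKB, groups that overlapped (0.15 ± 0.13, adjusted p = 0.696). None of these 5 was called in any of the 3 fits.

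MYLIP was at 73.3, 62.6, 67.5 and 65.0 CPM in untreated libraries, 80.8, 80.2, 78.8 and 78.9 with AKB, and 74.3, 73.4, 59.6 and 66.0 with pyruvate. The AKB libraries were above all others and close together. The log2 fold change was 0.25 ± 0.077 (adjusted p = 0.155), and it was called higher with the GC-content offset (0.26 ± 0.051, adjusted p = 0.00799 by edgeR) and without pyruvate replicates 3 and 4 (0.25 ± 0.049, adjusted p = 0.0112). SOAT1 overlapped untreated cells at 62.5 to 71.4 against 65.8 to 75.7 CPM, with a log2 fold change of −0.08 ± 0.11.

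With pyruvate, FDFT1 fell and was the only member called in the fit to all libraries. Its log2 fold change was −1.02 ± 0.18, from 44.2 ± 2.90 to 21.8 ± 4.17 CPM (SD, n = 4), with an adjusted p of 0.0206 by edgeR. All 4 pyruvate libraries lay below all 4 untreated ones, and it was called lower with the GC-content offset (−1.02, adjusted p = 0.00582) and without pyruvate replicates 3 and 4 (−1.28, adjusted p = 0.0132). The call was lost when untreated replicate 1, 2 or 3 or pyruvate replicate 4 was left out, with adjusted p-values of 0.0842, 0.0823, 0.086 and 0.0588 and fold changes between −1.06 and −0.98. Without pyruvate replicate 2 the number of members called went from 1 to 13, where 26.1% of all genes were called, and without pyruvate replicate 1 to 8, where 19.1% were. Higher calls numbered 0 of 26 members and lower calls 1, against 1.02% and 0.927% of all genes. DESeq2 called 6 members and limma-voom 1, against 13.4% and 1.62% of all genes. FDFT1 alone had groups that did not overlap on the lower side (6.0% of all genes), and no member did on the higher side (4.89%).

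At an unadjusted p below 0.05 there were 8 members higher and 5 lower with pyruvate, against 15.0% and 13.9% of all genes. The higher ones were MVK, PMVK, MVD, FDPS, LSS, TM7SF2, NSDHL and DHCR7, and the lower ones FDFT1, CYP51A1, MSMO1, HSD17B7 and SOAT1. PMVK, the phosphomevalonate kinase, was at 3.80, 5.51, 4.93 and 5.61 CPM in untreated libraries and 5.33, 7.22, 9.70 and 9.43 with pyruvate. MVD was at 71.2, 79.0, 83.7 and 95.3 CPM in untreated libraries and 94.5, 79.1, 151 and 151 with pyruvate. In both genes the 2 highest libraries were pyruvate replicates 3 and 4, and the log2 fold changes of 0.68 ± 0.19 and 0.53 ± 0.19 had adjusted p-values of 0.0747 and 0.109. MVK, the mevalonate kinase, was at 38.7 to 44.8 CPM in untreated libraries and 43.5 to 56.6 with pyruvate (0.24 ± 0.094, adjusted p = 0.128).

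The remaining estimates with pyruvate at this level were 0.42 ± 0.12 for LSS (adjusted p = 0.0763), 0.30 ± 0.093 for NSDHL (0.087), 0.21 ± 0.066 for FDPS (0.0892), 0.47 ± 0.19 for TM7SF2 (0.131) and 0.22 ± 0.088 for DHCR7 (0.138). DHCR7 catalyses the last step to cholesterol, and its pyruvate libraries were at 244, 241, 306 and 314 CPM against 225 to 250 untreated. On the lower side were HSD17B7, a ketosteroid reductase of C4 demethylation (−0.40 ± 0.14, adjusted p = 0.105), CYP51A1, the lanosterol demethylase (−0.24 ± 0.10, adjusted p = 0.153), MSMO1 (−0.27 ± 0.12, adjusted p = 0.167) and SOAT1 (−0.28 ± 0.11, adjusted p = 0.123). SOAT1 was at 75.7, 67.4, 69.4 and 65.8 CPM in untreated libraries and at 65.5, 65.8, 50.7 and 47.3 with pyruvate, where the low values are again those of replicates 3 and 4. Once pyruvate replicates 3 and 4 were left out, FDFT1 was at −1.28 and was called lower. HSD17B7, LSS, FDPS, NSDHL and PMVK had values of −0.27, 0.14, 0.14, 0.12 and 0.34 there, none called. The other estimates at this level were at most 0.11 in size there, none called.

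The split of the pyruvate group followed GC content closely within the list. Of 9 members with a transcript GC content of at least 55%, 9 were higher in pyruvate replicates 3 and 4 than in replicates 1 and 2, by 0.15 to 0.80 on the log2 scale. Of 12 members under 47%, 0 were higher, and their differences were −0.69 to −0.22. Across the 26 members the difference and GC content had a Pearson r of 0.916 and a Spearman rho of 0.92, beside 0.718 and 0.848 over 10021 genes, with all points drawn from the same 4 libraries. FDFT1, at 48.6% GC, was 0.47 higher in replicates 3 and 4, beside members of like GC that were lower, SQLE at −0.22, ACAT2 at −0.21 and NPC1 at −0.20, and one that was higher, NSDHL at 0.34. Whether this split arose in the cells or in the libraries was not tested.

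**Figure D3:**
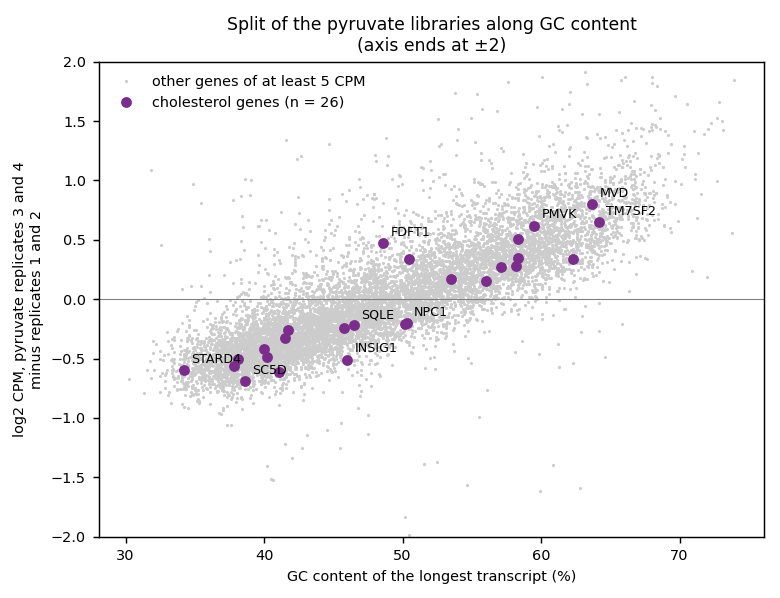
Difference in log2 CPM between pyruvate replicates 3 and 4 and replicates 1 and 2 against the GC content of the longest transcript, with 26 cholesterol genes in purple over the other genes among 10021 in grey, 40 of which lie beyond the axis at 2 in size. Purple points run from −0.60 for STARD4, lowest in GC, to 0.65 for TM7SF2, highest in GC.

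With the GC-content offset, LSS and NSDHL, a dehydrogenase of C4 demethylation, were called higher with pyruvate, and FDFT1 lower, against 5.07% and 4.15% of all genes. LSS rose by 0.19 (adjusted p = 0.0464 by edgeR) and NSDHL by 0.26 (adjusted p = 0.0439). Without pyruvate replicates 3 and 4 only FDFT1 was called, and 0 members higher, against 0.56% of all genes lower and 0.151% higher. HMGCS1 in that fit had a log2 fold change of 0.01 ± 0.072, and MYLIP one of 0.14 ± 0.059 (adjusted p = 0.321). INSIG1 was at 759 and 860 CPM in pyruvate replicates 1 and 2 and at 557 and 580 CPM in replicates 3 and 4, and STARD4 at 156 and 152 against 105 and 97.6 CPM. Under the GC-content offset SREBF2 (−0.12 ± 0.045, adjusted p = 0.108), SCAP (−0.18 ± 0.067, adjusted p = 0.107) and NPC1 (−0.17 ± 0.073, adjusted p = 0.16) had estimates below 0, and none of the 5 sensing and transport genes was called with pyruvate in any of the 3 fits.

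AKB and pyruvate were compared directly at the same dose and time, as 1 pair of compounds. HMGCS1 was higher with AKB, at 748 ± 42.9 CPM (SD, n = 4) against a mean of 505 CPM with pyruvate, whose libraries ran from 415 to 610, with a log2 difference of 0.57 ± 0.12 and an adjusted p of 0.0297 by edgeR. It was called too with the GC-content offset (0.43 ± 0.049, adjusted p = 0.000455) and without pyruvate replicates 3 and 4 (0.34 ± 0.073, adjusted p = 0.0297). The call was lost in the 8 libraries of the comparison alone (0.55, adjusted p = 0.125) and on leaving out 1 library from among untreated replicate 2, each AKB replicate and pyruvate replicates 3 and 4 (0.47 to 0.60, adjusted p-values of 0.0536 to 0.0971). HMGCS1 was the only member called, which made 1 higher and 0 lower against 1.94% and 1.19% of all genes. Without pyruvate replicate 2 there were 8 calls (15.3% of all genes) and without pyruvate replicate 1 there were 4 (12.8%). DESeq2 called 4 members and limma-voom 1, against 11.2% and 3.1%.

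At an unadjusted p below 0.05, 7 members were higher and 2 lower with AKB than with pyruvate, against 12.2% and 12.1% of all genes. Groups did not overlap for HMGCS1, MSMO1 and MYLIP on the higher side (7.08% of all genes) and for PMVK and NSDHL on the lower side (4.54%). MSMO1 was at 195, 175, 169 and 180 CPM with AKB and 156, 155, 113 and 107 with pyruvate (0.44 ± 0.12, adjusted p = 0.0662). PMVK was at 4.82, 4.57, 5.04 and 4.26 CPM with AKB, all below the pyruvate values given above (−0.76 ± 0.19, adjusted p = 0.0534). The difference in FDFT1 was 0.49 ± 0.18 (adjusted p = 0.126), with AKB replicate 4 at 21.2 CPM inside the range of the pyruvate libraries. The others were HSD17B7 at 0.43 ± 0.14 (adjusted p = 0.0976), INSIG1 at 0.31 ± 0.13 (0.164), CYP51A1 at 0.26 ± 0.10 (0.147), MYLIP at 0.22 ± 0.077 (0.114) and NSDHL at −0.22 ± 0.093 (0.171).

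With the GC-content offset, HMGCS1, TM7SF2, MSMO1 and MYLIP were called higher with AKB than with pyruvate and PMVK lower, against 7.43% and 6.96% of all genes. The differences were 0.40 for TM7SF2 (adjusted p = 0.0124 by edgeR), 0.27 for MSMO1 (adjusted p = 0.005), 0.18 for MYLIP (adjusted p = 0.037) and −0.58 for PMVK (adjusted p = 0.0164). Without pyruvate replicates 3 and 4 HMGCS1 alone was called, against 2.52% of all genes higher, and 0 lower against 1.84%. For SREBF2 and SCAP the 95% intervals of the difference between the compounds were −0.18 to 0.14 and −0.35 to 0.11 in the fit to all libraries. SREBF2 was at 0.10 ± 0.045 with the offset (adjusted p = 0.14) and 0.12 ± 0.051 without pyruvate replicates 3 and 4 (adjusted p = 0.19). For LSS and SQLE, which also did not pass the test, the intervals were −0.41 to 0.12 and −0.03 to 0.29.

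**Figure D4:**
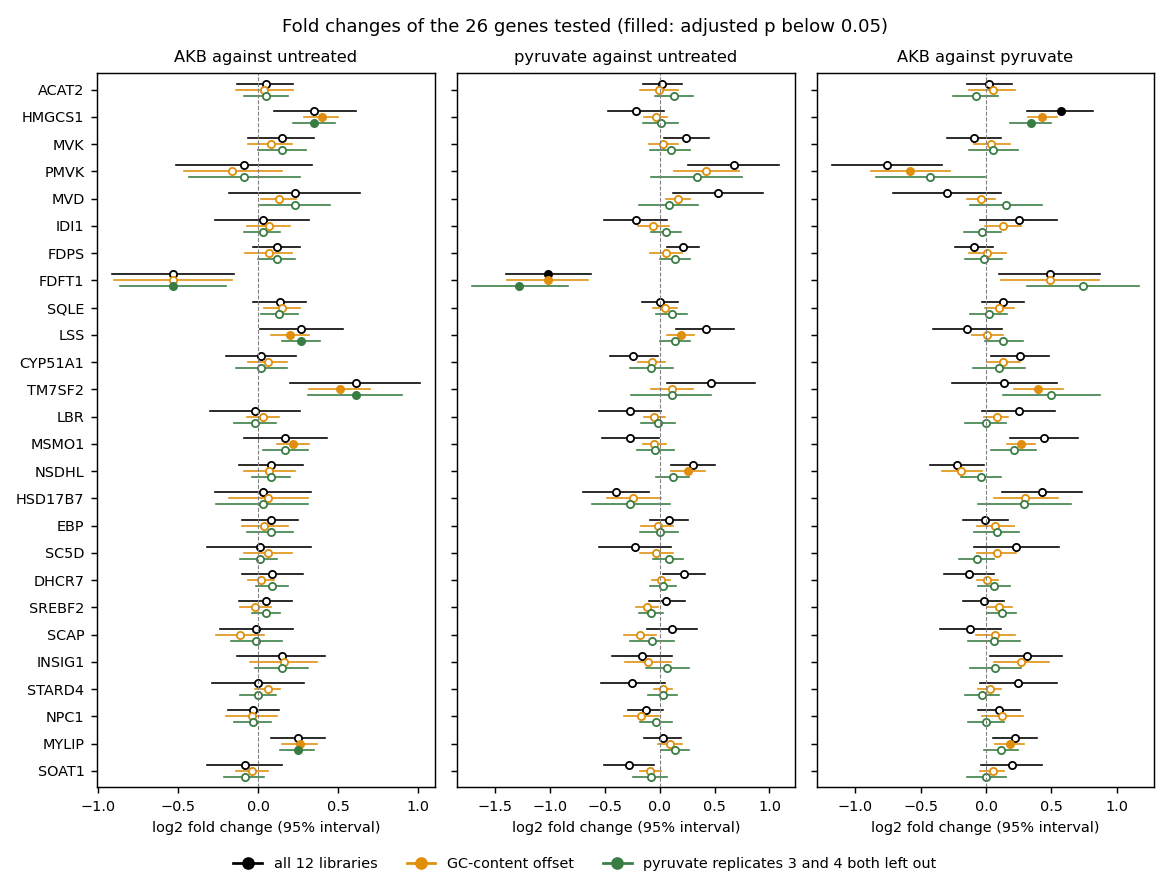
Log2 fold changes of the 26 genes with 95% intervals in the 3 comparisons, for the fit to all 12 libraries (black), with the GC-content offset (orange) and without pyruvate replicates 3 and 4 (green), filled where the adjusted p was below 0.05. HMGCS1 is filled in all 3 fits for AKB against pyruvate and FDFT1 in all 3 for pyruvate against untreated.

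Synthesis, sensing and transport genes were set against efflux and storage genes as the list divides them. With AKB, 18 of 24 in the first class had estimates above 0, with a median of 0.062, and the second held MYLIP at 0.25 and SOAT1 at −0.08, with a median of 0.082. With pyruvate, 13 of 24 were above 0, with a median of 0.014, and the second class had MYLIP at 0.03 and SOAT1 at −0.28, with a median of −0.13. Between AKB and pyruvate the medians were 0.11 and 0.21. Over all genes tested the medians were 0.0061, −0.0082 and 0.025 in these 3 comparisons. With 2 of 4 efflux and storage genes tested, these medians are a description of MYLIP and SOAT1, and no test of the classes was made. In single libraries the median of the 24 genes, relative to the untreated mean on the log2 scale, was 0.103, 0.084, 0.067 and 0.116 in AKB replicates 1 to 4, above the untreated range of −0.047 to 0.038. In pyruvate replicates 1 to 4 it was −0.010, 0.042, −0.090 and −0.107.

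The authors' deposited tables are signed here as treated over untreated. With AKB they called HMGCS1, MYLIP and TM7SF2 higher and 0 members lower. These 3 calls stand beside 4.64% of the genes tested here, called in either direction. For pyruvate the authors' deposited table called DHCR7, FDPS, LSS and PMVK higher and FDFT1 and HSD17B7 lower, 6 members against 10.8%. For AKB against pyruvate the authors' deposited table called FDFT1, HMGCS1, HSD17B7, MSMO1 and TM7SF2 higher and PMVK lower, against 9.3%. Most member estimates were close to those of DESeq2 run on the deposited counts, with median absolute differences of 0.02, 0.046 and 0.077 in log2 units. FDFT1 was apart: the authors' deposited table gave −1.13 with AKB, −2.87 with pyruvate and 1.74 between them, where DESeq2 on the counts gave −0.54, −1.01 and 0.47. For pyruvate, 8 of 13598 genes had a larger gap between the sources than FDFT1. GENCODE 29 lists 26 transcripts of FDFT1, and what set its values apart was not tested.

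**Figure D5:**
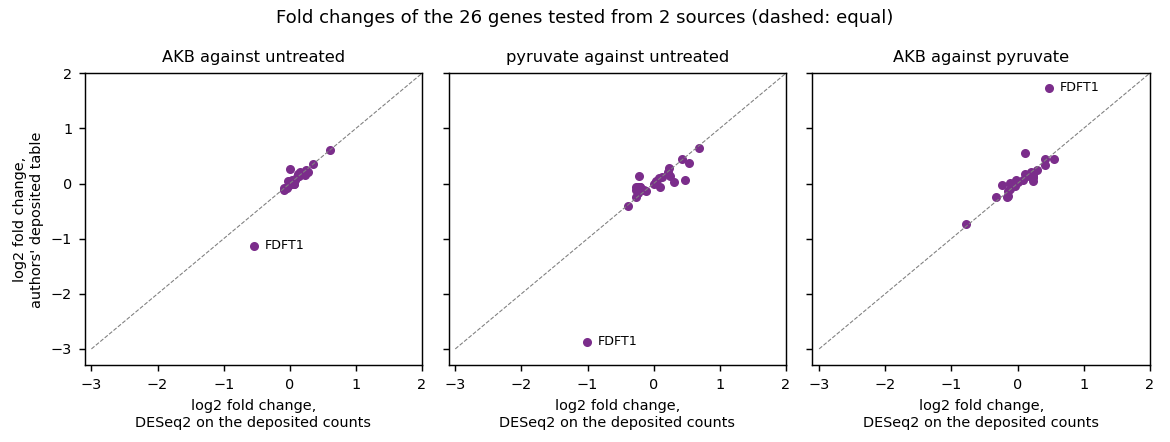
Log2 fold change in the authors' deposited table against that from DESeq2 on the deposited counts for the 26 genes in the 3 comparisons, with a dashed line where both are equal. FDFT1 is farthest from the line, at −2.87 against −1.01 for pyruvate, and TM7SF2 is next at 0.07 against 0.48.

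Other genes of sterol handling were read from 4 lists. In the list of LXR and lipoprotein genes, 11 of 12 were tested, and APOE and PLTP rose with AKB (2 of 11, against 1.37% of all genes higher). APOE, the apolipoprotein of cholesterol-carrying particles, was at 13.8, 17.3, 14.4 and 17.0 CPM in untreated libraries, 35.9, 41.6, 40.5 and 36.0 with AKB, and 17.8, 16.1, 27.9 and 26.2 with pyruvate. AKB libraries were above all others (1.30 ± 0.16 against untreated, adjusted p = 0.00192 by edgeR, and 0.81 ± 0.16 against pyruvate, adjusted p = 0.0265). PLTP, which moves phospholipid between lipoproteins, was at 8.38, 11.1, 9.16 and 7.90 CPM in untreated libraries and 17.1, 13.4, 12.8 and 15.3 with AKB (0.68 ± 0.16, adjusted p = 0.0492). With pyruvate 0 of these 11 genes were called by edgeR (1.95% of all genes), 3 had an unadjusted p below 0.05 (28.9% of all genes), and DESeq2 called 2 (13.4%) and limma-voom 0 (1.62%). SCARB1, a lipoprotein receptor, rose under the GC-content offset with AKB by 0.24 (adjusted p = 0.00551 by edgeR) and with pyruvate by 0.16 (adjusted p = 0.0424). Without pyruvate replicates 3 and 4 its values were 0.29 with AKB (adjusted p = 0.00265) and 0.08 with pyruvate (adjusted p = 0.524, not called), and over all libraries it was called in neither. With the offset 4 of these 11 genes were called higher with AKB and 1 with pyruvate, against 4.53% and 5.07% of all genes.

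The lists of other sterol sensing genes (13 of 13 tested), of the isoprenoid branch to ubiquinone, dolichol and prenylated proteins (9 of 9), and of lysosomal and contact-site sterol transport (11 of 15) had 0 calls by edgeR in the 3 comparisons over all libraries. At an unadjusted p below 0.05 were 13.2%, 28.9% and 24.2% of all genes with AKB, with pyruvate and between them, and DESeq2 called 3.96%, 13.4% and 11.2%. In the sensing list 4, 4 and 6 of 13 genes passed the unadjusted threshold, and DESeq2 called 1, 2 and 3 and limma-voom 0. In the isoprenoid list these were 3, 4 and 0 of 9 genes, with 0, 1 and 0 calls by DESeq2 and 0 by limma-voom, and in the lysosomal list all of these counts were 0. With the GC-content offset NFYA, a subunit of the factor that binds CCAAT, fell with AKB by 0.31 (adjusted p = 0.0154 by edgeR), and TMEM97 rose by 0.15 (adjusted p = 0.0453). The sensing list had 1 gene higher and 2 lower there, against 4.53% and 3.59% of all genes. NFYA was at 78.0, 72.6, 72.2 and 71.2 CPM in untreated libraries and at 60.7, 61.1, 50.4 and 61.9 with AKB, groups that did not overlap, and at 72.3, 84.5, 62.2 and 63.3 with pyruvate. Without pyruvate replicates 3 and 4 NFYA (−0.33, adjusted p = 0.0183) and SP1 (−0.19, adjusted p = 0.0446) were lower with AKB. In that fit 3 of the 13 sensing genes were called lower, against 4.31% of all genes. Between AKB and pyruvate with the offset NFYA (−0.33, adjusted p = 0.00919), NFYC (−0.21, adjusted p = 0.0244) and RNF139, a ubiquitin ligase (0.28, adjusted p = 0.0212), were called. The sensing list then had 1 gene higher and 3 lower, against 7.43% and 6.96% of all genes. In the isoprenoid list the offset gave COQ2 lower with AKB (−0.30, adjusted p = 0.0448) and FNTA lower with AKB than with pyruvate (−0.23, adjusted p = 0.00921), and in the lysosomal list ORMDL1 lower with AKB than with pyruvate (−0.16, adjusted p = 0.0387). These were 1 of 9 genes with AKB (3.59% of all genes lower), and 1 of 9 and 1 of 11 between AKB and pyruvate (6.96% lower).

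Some values rest on shared sequence. Counting is not stated to use strand, and reads of a gene and of an antisense neighbour may then not be told apart: in GENCODE 29, exons of ACAT2 overlap TCP1 and SOD2, those of MVK overlap MMAB, and those of NPC1 overlap RMC1, all in the count table. CYP51A1 shares 2844 exon bases with another identifier on its own strand, so its split between the 2 depends on the authors' estimation.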

How the data were processed

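Poly(A)-selected mRNA of K562 cells was measured in 12 libraries, grouped by their labels. The deposited values are estimated counts per gene. Per the submitters' processing notes, DESeq2 1.26.0 and Salmon 1.2.1 were used, with R 3.6.3. The genome build and annotation behind the counts are not given in the sources. The counts were whole already, so rounding changed none. The authors' deposited comparison tables hold, per the file headers, a mean normalised signal, log2 fold changes with standard errors, a test score, and p-values with adjusted p-values.

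Symbols were matched for 95.2% of identifiers, and GC content and coordinates came from GENCODE 29 on GRCh38. In R 4.3.3, edgeR 4.0.16 kept genes with filterByExpr (minimum count of 10), scaled libraries by TMM and fitted all 12 libraries with 1 term per group by its quasi-likelihood test. Adjusted p-values are Benjamini-Hochberg over all genes tested, and CPM use TMM-scaled library sizes. The GC-content offset was a spline with 5 degrees of freedom per library, fitted to genes of at least 5 CPM. DESeq2 1.42.0, limma 3.58.1 (voom), other scalings and filters, a replicate block and left-out libraries were alternatives. The code was tested on simulated data with 200 changed genes.

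The members and lists were chosen with earlier results of these data known. Statistics are given for members with an unadjusted p below 0.05 in one of 3 fits, all libraries, GC-content offset or without pyruvate replicates 3 and 4, and for at most 3 called genes per further list and comparison. The values of 1 gene of the further lists are not reported here. Promoters were to be shown for up to 3 members with the sterol element and for ABCA1. Whether replicate numbers pair the libraries was not tested. Correlations of same-numbered deviations were −0.0996 to 0.202. The 2 treatments share the same untreated libraries.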

Additional observations from a re-analysis of the deposited data

Results flagged for a closer look

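In 4 of 78 combinations of a member and a group, 1 library stood far from the other 3. Chance gives about 1 in 20, and the number flagged is near that share. FDPS was lowest in pyruvate replicate 1, at 213 CPM against 252 to 259 CPM. LBR was highest in AKB replicate 1, at 676 CPM against 588 to 594 CPM. NSDHL was lowest in AKB replicate 1, at 45.1 CPM against 47.9 to 48.4 CPM. STARD4 was lowest in untreated replicate 4, at 138 CPM against 155 to 157 CPM.

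The effects of AKB and of pyruvate on HMGCS1 differed by 0.57 on the log2 scale, with an adjusted p of 0.0297 for the difference itself by edgeR's quasi-likelihood test. This is the comparison of AKB with pyruvate given above. The difference was 0.34 without pyruvate replicates 3 and 4, and the call was lost in 8 of 23 alternatives. Every AKB library was above every pyruvate library, in 4 of 4 against 4.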

How the results depend on the processing

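The alternatives were planned ones, and summing identifiers that share a symbol was not run because each member had 1. Over 27 pairs of a gene and a comparison and 23 alternatives, 548 of 621 values kept their direction and side of the threshold, 61 gained a call, 12 lost one and 0 changed sign. The pairs were those with an unadjusted p below 0.05 by edgeR in the fit to all 12 libraries. The alternatives used the same libraries or a part of them, so a kept direction was likely beforehand and is not separate evidence. With AKB against untreated, 0 members were called with all libraries (1.97% of all genes) and 4 in the 8 libraries alone (10.1%). The GC-content offset gave 5 (8.12%), that offset with the replicate block 4 (6.82%), and leaving out pyruvate replicates 3 and 4 gave 5 (9.17%). With a library left out 0 were called, where 0.668% to 2.58% of all genes were. With pyruvate against untreated 1 was called (1.95% of all genes), and 6 by DESeq2 (13.4%). The GC-content offset gave 3 (9.21%) and the offset with block 3 (10.4%). With a library left out 0 to 13 were called, where 0.231% to 26.1% of all genes were. Between AKB and pyruvate 1 was called (3.13% of all genes), 2 with DESeq2's size factors (3.39%), 4 by DESeq2 (11.2%) and 0 in the 8 libraries alone (0.0449%). The offset gave 5 (14.4%) and the offset with block 5 (14.2%). With a library left out 0 to 8 were called, where 0.493% to 15.3% of all genes were. The replicate block by itself called 0, 1 and 1 members, against 1.16%, 4.16% and 2.62% of all genes. Whether the replicate numbers pair the libraries was not tested, and 5 of 12 libraries were closest to their own number.

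The median of MYLIP and SOAT1 with pyruvate against untreated was −0.127, and −0.001 with the offset, 0.0 with offset and block and 0.028 without pyruvate replicates 3 and 4 (−0.184 to −0.06 with a library left out). That of AKB against pyruvate went from 0.209 to 0.053 without those 2 libraries (0.139 to 0.265), and that of the 24 synthesis, sensing and transport genes from 0.114 to 0.059 (0.066 to 0.134). With a library left out, the median of the 24 genes was 0.046 to 0.078 with AKB and −0.072 to 0.044 with pyruvate against untreated, and that of MYLIP and SOAT1 with AKB was 0.058 to 0.128. The causes were not tested. Depth limits ABCA1, at 0 to 9 counts per library.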
